A study of Mus musculus with 10 samples.

Results

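The contacts described here were the short ones that joined a promoter-marked stretch of DNA to an unmarked stretch nearby in microglia, the resident macrophages of the brain. A contact was a called pair of bins of 5 kb. A bin was marked when the authors' table gave it H3K4me3, trimethylation of lysine 4 of histone H3. Members were chosen by the authors' marking and by distance: exactly 1 of the 2 bins was marked, and the bin starts lay at most 40 kb apart. There were 4419 such contacts among 26689 in all (16.6%), or 18.9% of the 23395 contacts with 1 marked bin. They joined 2695 distinct marked bins to 3732 distinct unmarked bins, fell into 1877 clusters of neighboring contacts (550 stood alone) and lay on 19 autosomes. Marking and distance are therefore what chose the members and are given only as description.

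H3K4me3 PLAC-seq, which enriches DNA contacts by an antibody against the mark, and H3K4me3 ChIP-seq were each measured in 2 libraries of wild-type microglia. The mice were of strain C57/Bl6 and the sorted whole cells CD45+, CD11b+ and CX3CR1+, and no label gives age, sex or number of animals. The methods name the substrain C57BL/6J, young adult males and a CD45low gate. Both PLAC-seq libraries had been combined in 1 list, so contacts have no replicate error, whereas H3K4me3 peaks were listed for each ChIP-seq library (27845 peaks from 12.8 M tags in replicate 1 and 26574 peaks from 13.4 M tags in replicate 2). The Hi-C libraries of the series, wild type and Sall1 enhancer knockout, were not analysed here, and no genotypes were compared. Replicates were not stated to come from separate animals. The cell type was checked by H3K4me3 within 1 kb of a coding start in both replicates, which 26 of 27 autosomal homeostatic microglia genes carried. Of markers of other cells, 7 of 15 neuron, 8 of 13 astrocyte, 5 of 12 oligodendrocyte, 4 of 12 endothelial and mural, 2 of 11 border macrophage, and 1 of 17 monocyte, neutrophil and lymphocyte genes carried it. Over all autosomal coding genes 12304 of 20807 did, so its presence alone set neuron and astrocyte markers little apart. Among genes that carried it, the median was 222 tags per 10 M tags for homeostatic genes and 220 over all. For the other lists, in the order given, it was 11.7, 45.3, 22.5, 35.5, 51.2 and 12.5.

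Promoters, where transcription starts, carry H3K4me3 when they are active, and enhancers are distal stretches of DNA that are thought to act on them through physical proximity. Contacts between nearby stretches of chromatin are frequent in any cell because the polymer folds on itself, so a caller of contacts compares each pair of bins with the number of read pairs expected at its distance. In microglia such contacts link promoters of identity genes to enhancers bound by lineage factors such as PU.1.

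The sequences below show what lay at either end. Unmarked bins rarely held a deposited H3K4me3 peak, and the first set gives peaks that did lie there. Among the 15 contacts of highest ratio, 3 unmarked bins held a peak, all in replicate 2 alone. The peak at Slc43a2 overlapped a UTR and is not shown, and the others are the peaks opposite bins nearest to Pxn and Il10ra. The next 3 lay in unmarked bins with a peak in both replicates, opposite the starts of Eno1 (19.5 and 7.46 tags per 10 M in replicates 1 and 2) and Lcp2 (11.7 and 13.4) and within Ski (14.0 and 11.2), and were chosen after their values were seen. The last pair are the 250 bases before the RefSeq starts (GRCm38.p6) of P2ry12 and Plcg2, whose marked bins had 2 and 7 members, also chosen after the values were seen. Capitals mark CpG dinucleotides. Peaks are on the plus strand of mm10 (GRCm38).
Pxn, chr5:115500658-115500846: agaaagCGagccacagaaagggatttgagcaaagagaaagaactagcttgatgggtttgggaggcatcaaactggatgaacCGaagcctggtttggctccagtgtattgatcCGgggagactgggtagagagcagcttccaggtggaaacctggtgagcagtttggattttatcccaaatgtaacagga
Il10ra, chr9:45299445-45299633: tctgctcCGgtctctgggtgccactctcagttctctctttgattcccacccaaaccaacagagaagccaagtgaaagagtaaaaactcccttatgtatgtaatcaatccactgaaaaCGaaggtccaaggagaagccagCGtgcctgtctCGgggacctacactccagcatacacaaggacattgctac
Eno1, chr4:150212817-150213001: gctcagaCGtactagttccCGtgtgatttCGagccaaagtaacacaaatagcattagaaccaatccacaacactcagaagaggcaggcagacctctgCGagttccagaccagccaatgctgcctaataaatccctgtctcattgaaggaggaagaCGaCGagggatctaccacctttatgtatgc
Ski, chr4:155163171-155163355: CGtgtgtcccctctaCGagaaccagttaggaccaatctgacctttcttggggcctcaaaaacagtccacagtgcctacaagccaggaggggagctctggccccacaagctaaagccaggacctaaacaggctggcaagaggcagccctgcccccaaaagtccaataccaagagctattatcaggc
Lcp2, chr11:34008759-34008943: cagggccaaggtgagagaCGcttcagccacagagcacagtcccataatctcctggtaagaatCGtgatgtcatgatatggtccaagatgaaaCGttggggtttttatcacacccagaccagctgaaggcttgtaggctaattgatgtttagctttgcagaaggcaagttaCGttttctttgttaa
P2ry12, chr3:59262986-59263235, minus strand: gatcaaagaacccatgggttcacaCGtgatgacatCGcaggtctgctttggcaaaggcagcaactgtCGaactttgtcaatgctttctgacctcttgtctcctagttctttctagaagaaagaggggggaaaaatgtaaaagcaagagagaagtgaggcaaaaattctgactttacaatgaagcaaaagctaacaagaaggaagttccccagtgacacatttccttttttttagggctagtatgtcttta
Plcg2, chr8:117498025-117498274, plus strand: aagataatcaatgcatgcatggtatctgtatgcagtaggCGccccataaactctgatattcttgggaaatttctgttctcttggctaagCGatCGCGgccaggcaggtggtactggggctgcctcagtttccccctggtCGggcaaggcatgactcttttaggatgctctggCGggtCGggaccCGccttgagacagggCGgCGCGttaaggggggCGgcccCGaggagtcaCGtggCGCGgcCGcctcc
The 5 peaks shown held 2 to 6 CpGs, and none of them matched PU.1 (GAGGAAGT), AP-1 (TGANTCA), SMAD (GTCTAGAC) or CTCF (AGNNGGCGC), searched on both strands, whereas the peak at Slc43a2, which is not shown and was taller than these (23.1 tags per 10 M in replicate 2), matched the PU.1 letters. The Plcg2 promoter held 17 CpGs and a match to the CTCF letters, and the P2ry12 promoter held 3 CpGs and no match. The median over 1217 RefSeq promoters that lay in the marked bin of a short contact was 16 CpGs (quartiles 8 and 22), against 10 (3 and 19) over 17957 other RefSeq promoters. The CTCF letters stood in 10.5% of promoters of short contacts and 7.56% of the others, the PU.1 letters in 3.70% and 2.20%, the AP-1 letters in 4.27% and 6.26%, and the SMAD letters in 0.0822% and 0.200%. Matches to the SMAD letters were too few among promoters of short contacts for their shares to be compared. The promoters of short contacts lay in bins chosen for the mark, whereas the others include promoters without it. The 2 sets thus differ in marking as well as in contacts, and the part of each was not tested. Between marked bins, given below, CpG observed over expected and the CTCF share were lower in members than in those with longer contacts only. A match is a description of letters and not a bound site.

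Contacts were most numerous at the shortest distance. At 10 kb there were 1442 members (32.6%), at 15 kb 739, at 20 kb 493, at 25 kb 462, at 30 kb 424, at 35 kb 420 and at 40 kb 439. The number thus fell over the first steps and then stayed level, and the step just outside the limit, 45 kb, held 446 contacts with 1 marked bin. How many pairs of bins were tested at each distance was not used here, so these are numbers of calls and not rates. Contacts up to 40 kb whose bins were both marked numbered 422, with 41 to 75 at each step.

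The number of read pairs fell with distance, and the expected number fell faster. The median read pair count of members was 48 at 10 kb, 34 at 20 kb, 29 at 30 kb and 25 at 40 kb, while the median expected count was 20.4, 14.0, 10.8 and 8.74. The ratio of read pairs to expected accordingly had a median of 2.31 at 10 kb, 2.46 at 20 kb, 2.69 at 30 kb and 2.91 at 40 kb, with 2.96 just outside at 45 kb. Across all members the median ratio was 2.45 (quartiles 2.23 and 2.80, highest 8.22), against 4.47 (3.67 and 5.54) for the 18976 contacts with 1 marked bin beyond 40 kb and 2.33 (2.17 and 2.63) for contacts up to 40 kb with both bins marked. Short contacts were called on more reads, with a median of 35 read pairs against 15 beyond 40 kb. No listed contact of these classes had a ratio below 2 or a false discovery rate above 0.01, so the ratios describe what the caller let through.

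**Figure D1:**
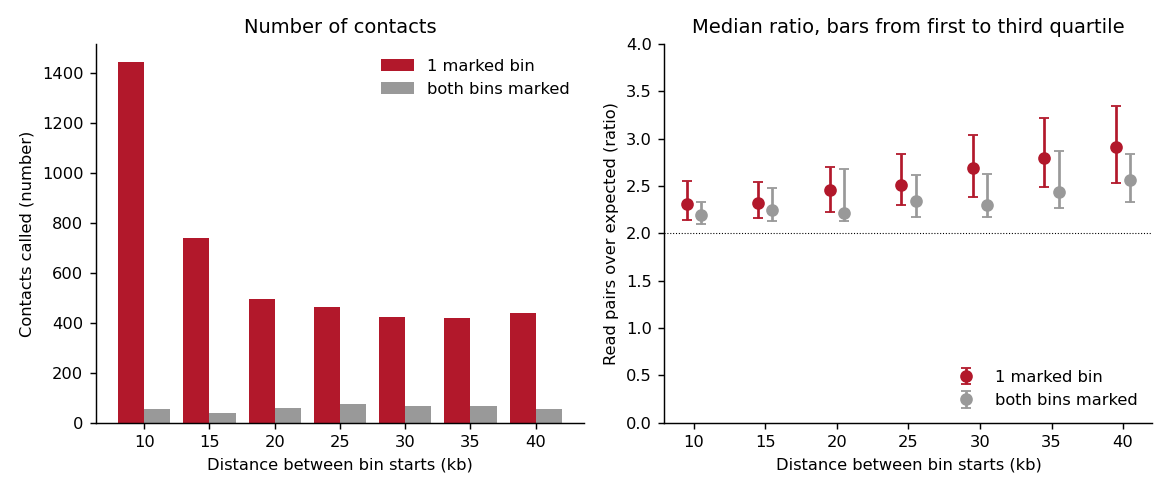
Number of called contacts (left) and median ratio of read pairs to expected (right, bars from the first to the third quartile) at each distance in kb, for contacts with 1 marked bin (red) and with both bins marked (grey); the dotted line is a ratio of 2. Contacts with 1 marked bin number 1442 at 10 kb and 439 at 40 kb, and their median ratio is 2.31 and 2.91.

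The unmarked bins lay mostly within or between genes and seldom at a coding start. The rule left this end unmarked, which kept starts in marked bins out of it, so the low share follows in part from the rule. A protein-coding start lay in 158 members' unmarked bins (3.58%, exact 95% interval 3.05 to 4.17), against 3.26% (3.01 to 3.52) beyond 40 kb, and the intervals overlap. The share ran from 0.922% to 6.43% over the 19 chromosomes. Of the 3732 distinct unmarked bins, 133 held a coding start, 1126 held an exon of a coding transcript without a start, 1073 lay in introns and 1400 (37.5%) lay between coding genes. These intervals, here and below, treat contacts as independent, which neighbors of a cluster are not, and cover counting error only.

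Many marked bins held no coding start. The share with one was 47.2% of members (exact 95% interval 45.7 to 48.6), against 51.8% (51.1 to 52.6) beyond 40 kb, and was lower than beyond 40 kb on all but 4 of the 19 chromosomes. It was lowest at 15 kb (42.9%, 39.3 to 46.6) and 51.3% (46.5 to 56.0) at 40 kb. Of the 1414 distinct marked bins with no coding start, 611 (43.2%) lay next to a bin with one, against 41.2% of those beyond 40 kb.

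Many short contacts stayed within the gene whose start they left from. In 890 members (20.1%, exact 95% interval 19.0 to 21.4) the unmarked bin overlapped the body of a coding gene that started in the marked bin, against 6.96% beyond 40 kb, and the share was higher than beyond 40 kb on each of the 19 chromosomes, at 15.6% to 27.1%. It was 23.5% at 10 kb and 16.2% at 40 kb. A bin farther away leaves the body of a short gene by construction, so the difference follows in part from distance itself. Of members with a coding start in the marked bin, 42.7% had the unmarked bin within that gene.

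The unmarked bin lay on the transcribed side of the start somewhat more often than on the other side. Among members whose marked bin held starts of a single strand, 1058 of 1934 (54.7%, exact 95% interval 52.5 to 56.9) reached downstream, against 51.7% (50.7 to 52.8) beyond 40 kb. The share was 57.5% (53.4 to 61.5) at 10 kb and 50.2% (43.2 to 57.3) at 40 kb. It exceeded 50% on 13 of the 19 chromosomes and ran from 40.6% to 66.1%, and it exceeded the share beyond 40 kb on only 10 of them, so the spread between chromosomes was wider than this difference. The downstream share differed between lengths of the gene. For genes of 40 to 100 kb the downstream share was 61.4% (56.9 to 65.7, 487 members) and for genes over 100 kb 61.5% (55.4 to 67.2, 275 members), whereas for genes up to 10 kb it was 46.0% (41.1 to 50.9, 411 members) and for genes of 10 to 40 kb 52.7% (49.1 to 56.3, 761 members). Beyond 40 kb the shares were 48.0% for genes up to 10 kb, 43.2% for 10 to 40 kb, 50.1% for 40 to 100 kb and 74.0% over 100 kb, so they did not climb steadily with length.

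Short contacts often passed over no other start. A coding start lay between the bins in 1129 members (25.5%, exact 95% interval 24.3 to 26.9), against 77.0% (76.4 to 77.6) beyond 40 kb. The share was 8.67% at 10 kb, 16.4% at 15 kb, 32.7% at 25 kb and 51.5% at 40 kb, and 67.4% at 45 to 100 kb. It was lower for members than beyond 40 kb on every chromosome, as a shorter span covers fewer starts. In 960 members (21.7%) the start passed over belonged to a gene other than those of the marked bin.

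**Figure D2:**
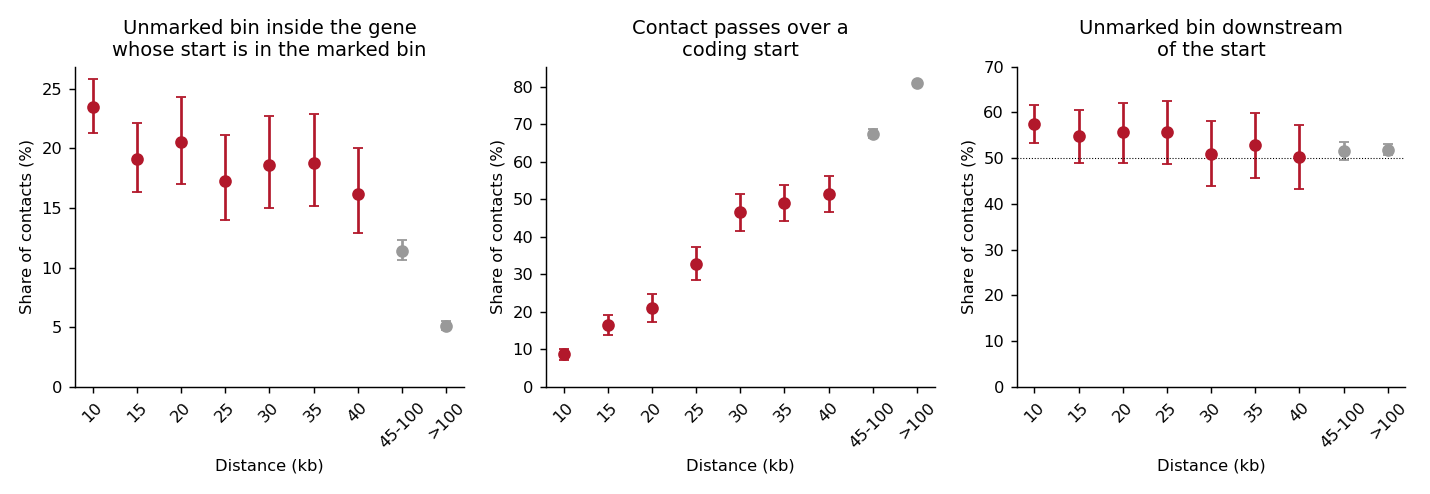
Shares of contacts (%) by distance, with exact 95% intervals: unmarked bin inside the gene that starts in the marked bin, contact passing over a coding start, and unmarked bin downstream of the start, with 50% dotted. Red points are short contacts and grey points are contacts with 1 marked bin at longer distances; the share passing over a start climbs to 51.5% at 40 kb and the share downstream is 57.5% at 10 kb.

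Most marked bins also held a deposited peak. In 79.1% of members (exact 95% interval 77.8 to 80.3) the marked bin held a peak in both replicates, against 83.0% (82.4 to 83.5) beyond 40 kb. The unmarked bin held one in both replicates in 28 members (0.634%, 0.421 to 0.914), against 0.585% (0.481 to 0.704) beyond 40 kb. Asking for a peak in 1 library only gave 2.96% with replicate 1 and 3.85% with replicate 2. Those peaks were low: at 100 unmarked bins with a peak in replicate 1 the median was 8.57 tags per 10 M tags of the library, with a highest value of 19.5, and at 135 bins in replicate 2 it was 8.95, with a highest value of 26.1. Of distinct unmarked bins, 30.8% lay next to a bin with a peak in both replicates, against 23.9% beyond 40 kb.

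H3K4me3 of the marked bins differed with the distance of the contact. The tallest peak of a marked bin had a median of 114 tags per 10 M in replicate 1 and 116 in replicate 2 over bins of members, against 137 and 143 over marked bins that had only contacts beyond 40 kb and 116 and 118 over 11376 autosomal bins that had a peak in both replicates and no contact. Medians of marked bins leave out bins without a peak in that replicate. Of the 2695 marked bins of members, 2269 had a peak in replicate 1 and 2247 in replicate 2. At 10 kb the medians were 82.6 in replicate 1 and 89.2 in replicate 2, at 20 kb 129 and 132, and at 40 kb 157 and 163. The quartiles were wide and overlapped, from 23.4 to 235 over all members in replicate 1. Bins with a coding start differed less, with medians of 214 and 224 in bins of members against 219 and 228 in bins of longer contacts, and bins without a coding start had 26.5 and 26.1 against 28.0 and 29.5. The share of members with a coding start in the marked bin was also lower at 10 kb (44.0%) than at 40 kb (51.3%).

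**Figure D3:**
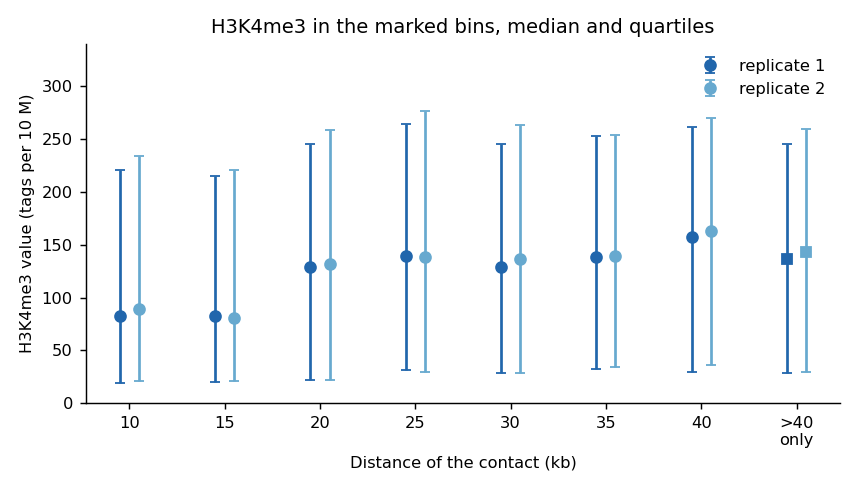
Median H3K4me3 value of the tallest peak in the marked bin (tags per 10 M, bars from the first to the third quartile) by distance of the contact in kb, in replicate 1 (dark) and replicate 2 (light); squares are marked bins with contacts beyond 40 kb only. Medians are 82.6 and 89.2 at 10 kb and 157 and 163 at 40 kb, over bins with a peak in that replicate.

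The contact of highest ratio among those with at least 20 read pairs lay within Ptp4a3, the gene of a protein tyrosine phosphatase. It joined the start (chromosome 15, 73720001 to 73725000, H3K4me3 109.1 and 132.0 tags per 10 M in replicates 1 and 2) to a bin 30 kb downstream that held a UTR exon of the gene (73750001 to 73755000), with 79 read pairs against 11.3 expected (ratio 6.98) at a false discovery rate of 2.74e-35. The next bin, at 35 kb, had 33 read pairs against 7.57 expected. The start of Cdc42bpg, a kinase of the cytoskeleton, contacted an intergenic bin 40 kb upstream (chromosome 19, 6265001 to 6270000) with 57 read pairs against 9.58, a ratio of 5.95.

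Others of the strongest contacts lay at or near Cx3cr1, Fli1, Srgn and Il10ra, genes picked from the 15 contacts after their values were seen. At Cx3cr1, which encodes the fractalkine receptor used to sort these cells, the bin next to that of the start (chromosome 9, 120070001 to 120075000, 12.5 and 35.1 tags per 10 M) contacted a bin 40 kb away (120030001 to 120035000) with 32 read pairs against 5.46 expected, a ratio of 5.86. Fli1, an ETS transcription factor of blood cells, contacted its own intron 40 kb downstream (chromosome 9, 32500001 to 32505000) with 53 read pairs against 10.5 (ratio 5.07, H3K4me3 370.1 and 402.0). Srgn, the gene of the granule proteoglycan serglycin, contacted a bin in an intron of Kif1bp 40 kb upstream with 29 read pairs against 5.82 (4.98). A bin 3351 bp from the nearest coding start, that of the interleukin-10 receptor gene Il10ra, contacted an intergenic bin at 25 kb with 34 read pairs against 6.48 (5.24).

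The remaining contacts of the 15 with the highest ratios lay at genes of several functions. Slc43a2, an amino acid transporter gene, contacted a UTR exon of its own 40 kb downstream (ratio 5.08), and Arhgef2, which encodes an activator of small GTPases, contacted its own exon 30 kb downstream (5.15). Atg101, an autophagy gene, contacted an intergenic bin 40 kb upstream (5.43). Bins nearest to the starts of Tmco6, Ly6e, Pxn (5.59), Exoc3l4 (5.50) and Ier5 (5.19, 47136 bp from the start) and the start of Zfp868 (4.97) made up the list. Of these 15 contacts 8 spanned 40 kb, the farthest distance allowed, and 1 spanned 10 kb. The marked bins nearest to Tmco6 and Ly6e held no deposited peak in either replicate, and that nearest to Pxn held one in replicate 2 only and that of Arhgef2 in replicate 1 only.

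**Figure D4:**
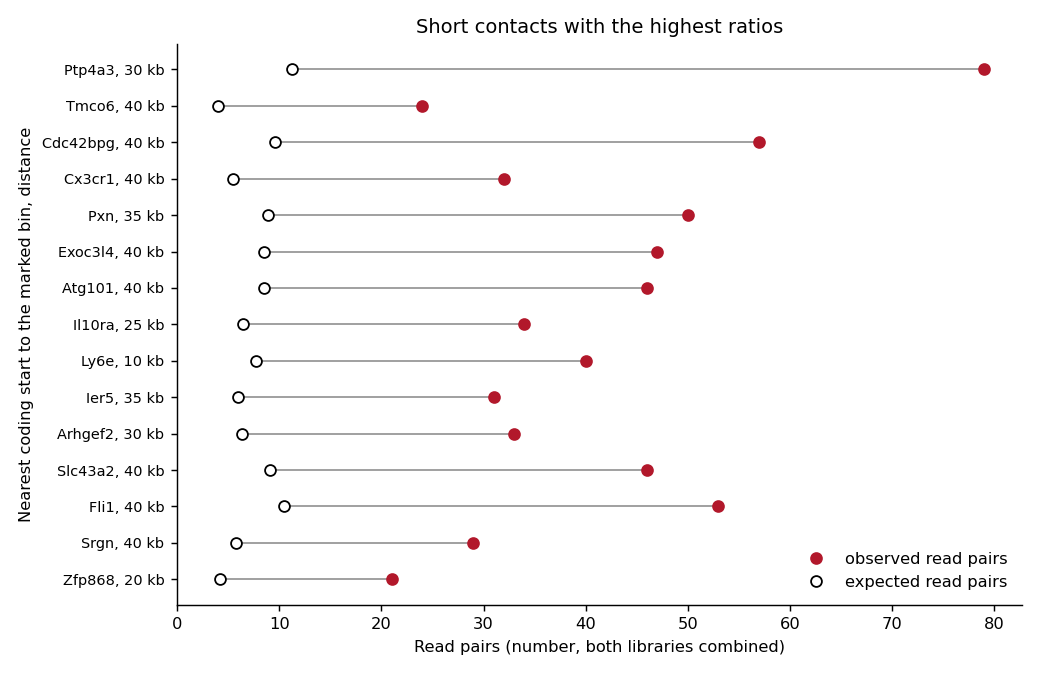
Observed (red) and expected (open) read pairs, in both libraries combined, for the 15 short contacts of highest ratio with at least 20 read pairs, 1 per cluster, named by the coding start nearest to the marked bin and by distance. Ptp4a3 stands highest with 79 read pairs against 11.3 expected, and the lowest count is 21, at Zfp868.

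Members were spread thinly over marked bins. Of the 2695 marked bins 1595 had 1 member, 695 had 2 and 405 had 3 or more, with 8 at most. Of the 1100 bins with more than 1, 339 had members on both sides. The marked bin also had contacts with 1 marked bin beyond 40 kb in 1205 cases (44.7%), and 1109 (41.2%) had no longer or doubly marked contact at all.

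Bin1, an adaptor of membrane curvature and a homolog of an Alzheimer's disease risk gene, had the most members of any marked bin. The bin of its start (chromosome 18, 32375001 to 32380000, H3K4me3 357.6 and 368.5 tags per 10 M in replicates 1 and 2) had 8, with 4 on either side at 10 to 40 kb, 555 read pairs in all against 221 expected and ratios of 2.05 to 3.00. The downstream contacts all lay within the gene, and the strongest by count was at 10 kb, with 132 read pairs against 47.4. Sparc, which encodes a matrix protein that microglia express, had 7 at 1 bin of its start (chromosome 11, 55415001 to 55420000) and 4 more at the next, which held no deposited peak, for 573 read pairs against 243. Of these 11 contacts 7 lay within the gene and 4 upstream.

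Other marked bins with many members differed in which side they reached. At Rnf144b, a ubiquitin ligase gene, all 7 contacts lay downstream within the gene at every step between 10 and 40 kb, with 264 read pairs against 100 expected. At Soga1 all 6 likewise lay within the gene (328 against 127), and at Itpkc, an inositol trisphosphate kinase gene, all 6 lay downstream (312 against 138), 3 of them within the gene. At Pdgfb, the gene of a platelet-derived growth factor chain, all 5 lay upstream (353 against 141), and the contact at 10 kb had 151 read pairs against 56.4, the highest count of any member. Plcg2, a phospholipase gene that acts downstream of immune receptors, had 5 downstream within the gene and 2 upstream (238 against 109), and Otulinl had 4 upstream and 2 within the gene (295 against 114).

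A pair of these marked bins held no coding start. A bin in a UTR exon of Kif1bp (chromosome 10, 62540001 to 62545000), 15049 bp from the nearest coding start, that of Srgn, had 7 members with ratios of 2.86 to 4.46 at a low H3K4me3 value of 6.23 and 11.2. A bin in an intron of Ptk2b (chromosome 14, 66235001 to 66240000, 24.2 and 14.9), a tyrosine kinase gene and homolog of an Alzheimer's disease risk gene, had 6, all to bins within introns of Ptk2b, with ratios of 2.45 to 5.01.

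The next question was which genes had short contacts at their starts. Of 12304 autosomal protein-coding genes with a peak within 1 kb of a start in both replicates, 1281 (10.4%) had a start in the marked bin of at least 1 short contact. Of these 595 also had a longer contact with 1 marked bin at a start and 686 did not. In comparison, 27.0% of the marked genes had a longer contact. Genes that share a bin share its contacts. Contacts of a marked bin without a start were not counted for a gene, even where that bin lay next to its start.

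Of 26 marked homeostatic microglia genes, 12 (46.2%, exact 95% interval 26.6 to 66.6) had a short contact, and the median number per gene was 0, as over all marked genes. The share with a longer contact was 53.8%, and the median H3K4me3 of the genes was 222 tags per 10 M against 220 for all marked genes. The bin of the Cx3cr1 start (chromosome 9, 120065001 to 120070000, H3K4me3 225.2 and 197.7) had 4 members, all downstream: 38 read pairs against 16.9 at 15 kb, 30 against 13.6 at 30 kb, 39 against 9.65 at 35 kb and 47 against 14.4 at 40 kb. The excess was thus greatest at 35 kb (ratio 4.04). The coding transcripts of this annotation span 168 kb at Cx3cr1, so that all 4 bins count as within the gene, whereas RefSeq gives 19.6 kb (120048683 to 120068296), and by it the 3 farther bins lie beyond the end of the gene.

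P2ry12 and P2ry13 are neighboring purinergic receptor genes, with 3 and 2 members. A bin with a start of P2ry12 (chromosome 3, 59260001 to 59265000) contacted another bin with a start of the same gene 35 kb away (59225001 to 59230000) with 19 read pairs against 6.16 (ratio 3.08) and a bin at 10 kb with 36 against 15.9. Another P2ry12 start bin (59220001 to 59225000), without a deposited peak in either replicate, contacted a bin 30 kb away with 20 against 6.84. P2ry13 contacted the P2ry12 start bin at 59225001 to 59230000, 15 kb away, with 30 against 13.4 (2.24). It also contacted a bin at 30 kb with 18 against 6.70 (2.69), close to the threshold at a false discovery rate of 0.00868. Tmem119, a membrane protein gene that marks microglia, had 1 contact at the bin of its start, with a bin holding a UTR exon of Iscu 25 kb away (37 against 11.6, ratio 3.18). The next bin (chromosome 5, 113795001 to 113800000, 173.7 and 202.1) held no start and had 5, among them 88 read pairs against 38.9 at 10 kb, 70 against 22.5 at 20 kb and 80 against 32.6 at 15 kb on the other side.

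Mef2c, a transcription factor gene, had 6 members at bins of 2 of its starts, with 139 read pairs against 53.7 and ratios of 2.16 to 3.29, all to bins within the gene. The start bin with high H3K4me3 (215.8 and 207.4) had a single one, 18 against 6.57 at a false discovery rate of 0.00658. The rest lay at a start bin with low H3K4me3 (15.6 and 21.6). Tgfbr1, the type I receptor of TGF-beta, had 3 at the bin of its start, all upstream. The highest ratio was at 40 kb, to a bin with a UTR exon of Col15a1 (22 against 6.95, 3.16). The next bin (68.6 and 34.3) held no start and contacted an intron of Tgfbr1 at 10 kb (71 against 33.7, 2.10). Fcrls, an Fc receptor-like gene, had 3 (130 against 53.6), and Ets1, an ETS factor gene, had 2 within the gene (118 against 49.7). Single members lay at Ctss (63 against 30.4), a lysosomal protease gene, and at Gas6 (59 against 25.9), a ligand of the receptor Axl. The other 14 marked genes had none at the bin of a start: Selplg, Csf1r, Sall1, Olfml3, Siglech, Cst3, Trem2, C1qa, C1qb, C1qc, Crybb1, Mertk, Pros1 and Mef2a. Marked bins within Selplg and Sall1 that held no start did have members. Among these were 51 read pairs against 23.1 at Selplg and 65 against 31.2 at Sall1, both at 10 kb. Several of the 14 genes had longer contacts, 18 at Sall1, 12 at Olfml3, 21 at Mef2a and 7 at Mertk.

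Among loci that the study examined, 10 of 22 marked genes (45.5%, exact 95% interval 24.4 to 67.8) had a short contact, against 10.4% over all marked genes. Their share with a longer contact was 36.4%, against 27.0% over all. The list overlaps others: P2ry12, Tmem119 and Ets1 are given above, and Ski and Tgfbr2 follow with the TGF-beta genes. Apoe, the gene of a lipid carrier, had 2 members at low H3K4me3 (14.0 and 14.9 tags per 10 M), 41 read pairs against 18.5 at 20 kb and 24 against 8.91 at 25 kb, both to bins with a start of Apoc2, another apolipoprotein gene, that carried no peak near its start. Axl, a receptor tyrosine kinase of phagocytes, had 3 at H3K4me3 of 8.57 and 20.9, with 2 upstream in Cyp2s1 and 1 within Axl (112 against 48.0 in all). Tnf, the tumor necrosis factor gene, had 2 upstream at 10 and 15 kb (74 against 29.9), and C3ar1, a complement receptor gene, had 1 upstream at 10 kb (23 against 6.40, 3.59). Mrc1, a mannose receptor that marks border macrophages, had 1 within the gene, 33 read pairs against 16.4, at a false discovery rate of 0.00970 just inside the limit.

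Of 38 marked genes of TGF-beta and SMAD signaling, 10 (26.3%, exact 95% interval 13.4 to 43.1) had a short contact, against the 10.4% over all marked genes. Their share with a longer contact was 36.8%, against 27.0% over all marked genes. Among receptors, Acvr1 had 3, in a bin that also holds the start of Upp2. The strongest was at 30 kb to its own UTR exon (73 against 18.8, ratio 3.87). Tgfbr2 had 1 at the bin of its start, to its own intron at 40 kb (28 against 8.54, 3.28). The next bin held no start and also reached into Tgfbr2, with 38 against 11.1, 36 against 12.8 and 32 against 11.4. Acvr2b had 2 within the gene (100 against 47.0) and Acvr1b had 1 upstream (45 against 20.5). Among regulators and activators, Pmepa1, a target that dampens the pathway, had 2 (163 against 71.4), Ski, a corepressor of SMADs, had 1 within the gene (47 against 21.6), Nrros, which anchors latent TGF-beta on myeloid cells, had 1 upstream at 35 kb (34 read pairs, ratio 2.83) and Itgav, an integrin that activates TGF-beta, had 1 within the gene (44 against 19.8). Smad1, a signal transducer, had 1 within the gene (46 against 21.5). Smad3 and Smad7 had none at the bin of a start but had 14 and 7 longer contacts. Bins next to other starts of this list had members too, such as those at Ski (50 against 18.5) and Itgav (58 against 24.9).

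Among lists with at least 7 marked genes, the share was highest for lysosome and phagocytosis genes. Of these, 17 of 33 marked genes (51.5%, exact 95% interval 33.5 to 69.2) had a short contact, the median gene had 1, and 45.5% had a longer one. Their median H3K4me3, 264 tags per 10 M, was above the 220 of all marked genes, and its part in the share was not tested. Ctsd, the cathepsin D gene, had 5 members (335 read pairs against 142), Cd9, a tetraspanin gene, had 4, all within the gene (119 against 39.7, ratios 2.77 to 3.65), and Axl is given above. Single or paired members lay at Ctsb, Ctsc, Ctsa, Ctsl, Lgmn, Psap, Tpp1, Laptm5, Atp6v0d1, Grn, Mcoln1 and Scarb2, beside Ctss.

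The next lists lay between these and the share over all marked genes. Homologs of Alzheimer's disease risk genes had 10 of 32 (31.2%), led by Bin1, Plcg2 and Mef2c, and disease-associated microglia genes had 6 of 18 (33.3%), led by Ctsd, Cd9 and Axl. Inflammatory response genes had 7 of 24 (29.2%), with 4 members at Dusp1, a phosphatase of MAP kinases, and 2 each at Cd83, Cxcl10, Cxcl16 and Tnf. Myeloid transcription factors had 17 of 63 (27.0%), with 6 at Mef2c, 4 at Fli1, 4 at Nr4a1 and 3 at Irf8. Of the microglia signature that the study defined by expression, 45 of 224 (20.1%, 15.0 to 25.9) had one, led by Sparc, Bin1 and by Col27a1, Cx3cr1 and Rtn4rl1 with 4 each. Shares with a longer contact were also above the 27.0% of all marked genes. They were 34.4% for the Alzheimer's disease homologs, 38.9% for disease-associated genes and 41.7% for inflammatory genes. For myeloid transcription factors the share was 57.1%, and for the signature 40.2%. A share above that of all marked genes was thus not particular to short contacts.

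Ribosomal protein genes, which every cell uses, had 2 of 36 (5.56%, exact 95% interval 0.680 to 18.7), among them Rps14 with 4 members (159 read pairs against 74.1), at a median H3K4me3 of 241, and their share with a longer contact was 36.1%. Markers of other cells had few marked genes: 0 of 7 for neurons, 1 of 8 for astrocytes (Slc1a3), 0 of 5 for oligodendrocytes, 1 of 4 for endothelial and mural cells (Pecam1), 2 of 2 for border macrophages (Mrc1 and Stab1) and 0 of 1 for monocytes, neutrophils and lymphocytes. No list was tested for enrichment, and lists share genes.

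**Figure D5:**
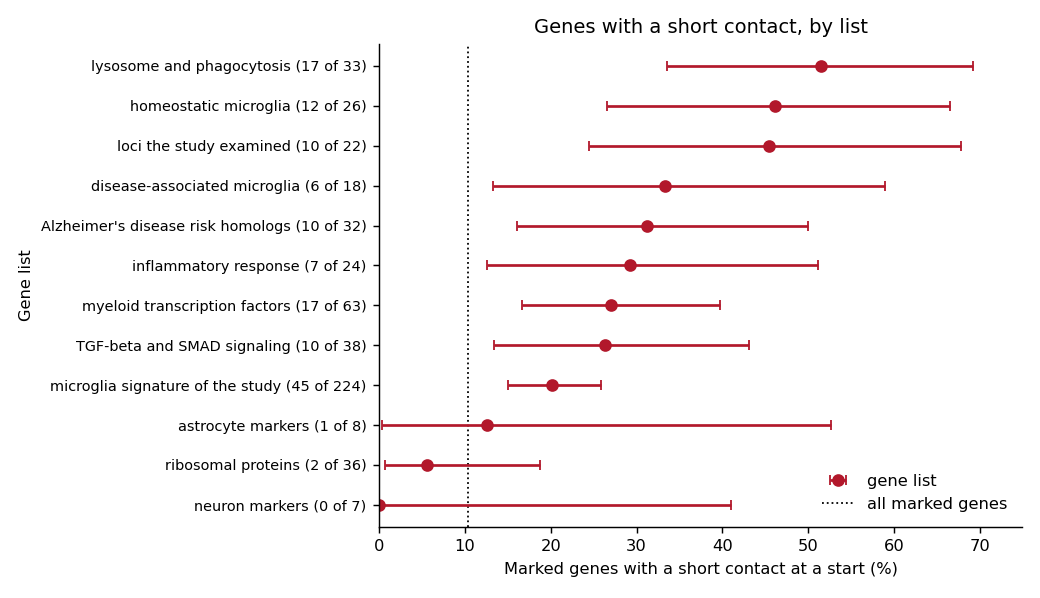
Share of marked genes with a short contact at a start (%), with exact 95% intervals, for each gene list with at least 7 marked genes; the dotted line is the 10.4% over all 12304 marked genes. Lysosome and phagocytosis genes stand highest with 17 of 33 and ribosomal proteins have 2 of 36.

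Few short contacts reached a coding start with the unmarked bin. Of 20807 autosomal coding genes 135 (0.649%) had a start there. The rule required this bin to be unmarked, whereas 12304 of these genes carried H3K4me3 near a start. The low share thus follows in part from the rule and is given only as description. The highest ratio among these was at a bin nearest to Tmco6, which reached a start of E230025N22Rik 35 kb away (21 read pairs against 3.89, 5.40). A bin with a UTR exon of Sp6 reached a start of Sp2, both genes of SP zinc finger factors, at 40 kb (41 against 9.38, 4.37). Within Pxn, the gene of the adhesion protein paxillin, the start (chromosome 5, 115505001 to 115510000, H3K4me3 403.6 and 465.5) reached an alternative start 35 kb downstream (45 against 11.1, 4.05), and Diaph1, a formin gene, did likewise at 30 kb (30 against 8.19, 3.66). A bin in an intron of Cd276, an immune checkpoint gene, reached a start of the gene at 10 kb (49 against 12.9, 3.78). The others of the 10 strongest reached starts of Nsd1 (4.35), Srp54a (4.33), Caps2 and Glipr1l3 (4.32), Ltb (3.73) and Fxyd1 and Lgi4 (3.69).

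The 10 strongest contacts from a start into its own gene included those of Ptp4a3, Arhgef2, Slc43a2 and Fli1, given above. The others were Zfp976, with only 15 read pairs against 2.70 (5.55), and Fmnl3 (20 against 4.31, ratio 4.64), Ralgds (37 against 8.15, 4.54), Irak2 (34 against 7.61, 4.47) and Lrch1 (29 against 6.70, 4.33). Irak2 encodes a kinase of Toll-like receptor signaling, Fmnl3 a formin that shapes the actin cytoskeleton and Ralgds an activator of the GTPase Ral. Of the 10 contacts, 9 spanned 30 kb or more.

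The unmarked bins had an intermediate base composition. Their median GC content was 45.9%, against 45.1% in unmarked bins beyond 40 kb and 41.4% over 478887 autosomal bins, and marked bins of members had 47.9%. CpG observed over expected had a median of 0.202 in unmarked bins of members (quartiles 0.165 and 0.240), 0.201 beyond 40 kb and 0.169 over all bins. In marked bins it was 0.292 (0.224 to 0.393), against 0.339 (0.254 to 0.449) in those with longer contacts only. The median count of GATC sites was 13 in unmarked bins of members and 12 over all bins.

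The CTCF letters stood in 15.1% of unmarked bins of members, against 16.1% beyond 40 kb and 10.8% of all bins, and in 30.9% of marked bins of members, against 39.9% of those with longer contacts only. The PU.1 letters stood in 31.8% of unmarked bins, against 28.9% beyond 40 kb and 26.8% of all bins, and in 33.8% of marked bins, against 30.5%. The AP-1 letters (79.6%, 78.1% and 78.4% of the same 3 sets of unmarked bins) and the SMAD letters (4.50%, 4.71% and 3.87%) differed little. In marked bins the CTCF share was 27.2% at 10 kb and 38.3% at 40 kb, and it was 42.2% in bins of members with a coding start and 20.7% in those without.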

How the data were processed

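Sorted wild-type microglia were profiled by H3K4me3 ChIP-seq and H3K4me3 PLAC-seq, with 2 libraries each. The deposited peak lists give, for each ChIP-seq library, a signal per peak, in tags per 10 M mapped tags as normalized by the authors, and a whole tag count. The submitters' processing notes name Bowtie2, HOMER and mm10. Both PLAC-seq libraries were pooled by the authors, who called contacts between bins of 5 kb with MAPS 1.1.0; the deposited list gives a read pair count, the expected count from the caller's regression and a false discovery rate, an adjusted p-value set by the authors. The flags of marked bins came from another peak list, of the ENCODE pipeline, which was not used here. The authors' cluster scores were not used. Total PLAC-seq depth and the tested pairs are unknown here, so a pair absent from the list is not shown to lack contact.

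Starts and gene bodies came from protein-coding transcripts of the basic GENCODE M21 annotation (GRCm38). A gene counted as marked if both replicates had a peak no farther than 1 kb from a start, and a bin held a peak at an overlap of at least 1 bp. Shares carry exact 95% binomial intervals (scipy 1.17.1, pandas 2.3.3, Python 3.11.15), with the range over chromosomes as spread; no test was run, since contacts have no replicates and the rule used the flags and distances. The code was checked on 200 simulated contacts. Named contacts were the 15 of highest ratio with at least 20 read pairs, 1 per cluster; the 10 marked bins with most members, ties broken by read pairs; at most 3 per gene of 3 lists for homeostatic genes, loci of the study and TGF-beta, to which further members of the same genes were added after the values were seen; the 10 of highest ratio that reached a coding start and the 10 within their own gene; and the 3 leading genes of other lists. Members, lists and rules were chosen with earlier results of these data known. Alternatives changed the false discovery rate, read pairs, distance, clusters, marking, gene types and replicates. Some genes of the lists are counted but not reported by name here.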

Additional observations from a re-analysis of the deposited data

How the results depend on the processing

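The number of short contacts was 1928 with the false discovery rate limited to 0.0001 and 1877 with 1 contact per cluster, against 4419. The median ratio of 2.45 was 2.66 at that rate, 2.43 with at least 20 read pairs, 2.38 up to 30 kb, 2.53 up to 50 kb and 2.55 with 1 contact per cluster. The share of unmarked bins within the gene was 22.8% at the stricter rate, 21.4% with 1 contact per cluster and 23.7% with bins marked by the deposited peaks, and contacts passing over a coding start were 20.6% at the stricter rate, 19.6% up to 30 kb, 30.8% up to 50 kb, 19.2% with 1 contact per cluster and 39.5% with starts of genes of all types. Unmarked bins with a start were 4.20% with the deposited peaks as marks and 10.5% with starts of genes of all types. Unmarked bins with a peak were 0% when bins were marked by the same peaks, by construction, 0% with peaks of at least 20 tags per 10 M, and 2.96% to 3.85% with either replicate left out. The median H3K4me3 of marked bins, 115 as the mean of replicates, was 123 at the stricter rate, 120 with at least 20 read pairs, 109 up to 30 kb, 131 with 1 contact per cluster and 130 with the deposited peaks as marks. The share of marked genes with a short contact was 6.61% at the stricter rate, 8.90% up to 30 kb, 11.8% up to 50 kb and 7.53% with 1 contact per cluster. The downstream share stayed within its interval under each of its 6 alternatives. Where no construction shows it, the cause was not tested. No paired analysis was possible because no result came from a test between groups. The list holds 1 value per contact over both libraries, so error between animals, and counts below what the caller passes, are not covered.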

Other observations

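Marked genes were also split into 5 equal groups by the mean H3K4me3 value of both replicates. A gene counted only if its start lay in a bin flagged for H3K4me3, and the same mark was used to enrich contacts. Any order along this value is therefore partly built in, and how much was not tested. The share with a short contact was 7.07% (exact 95% interval 6.09 to 8.16) in the lowest group and 12.9% (11.6 to 14.3) in the highest, with 10.8% and 10.2% in the next groups up from the lowest and 272 of 2465 genes (9.82 to 12.3%) in the group just below the highest. Split by gene length instead, it was 11.1% (9.88 to 12.4) in the shortest group, up to 8.09 kb, then 10.9%, 9.31% and 11.5% (10.3 to 12.8) in the next 3, and 9.22% (8.11 to 10.4) in the longest, over 68.5 kb, with no steady order. Of genes with a short contact, 146 of 227 in the longest group also had a longer contact, against 112 of 273 in the shortest.

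Scimp and Plac8, genes of the lists that did not have a deposited peak near a start in both replicates, had short contacts. They were not alone: 53 autosomal coding genes that lacked such a peak in at least 1 replicate had one. Of the 20807 autosomal coding genes, 12304 had a peak in both replicates, and 1281 of those (10.4%) had a short contact. The start bins of the 53 genes were nonetheless marked by the authors' own flags, as the rule required. Scimp, an adaptor of immune receptors, had 3, all downstream, with 84 read pairs against 30.4 expected and ratios of 2.13 to 4.06, at a peak of 7.01 tags per 10 M in replicate 1 and none in replicate 2. Plac8, used as a marker of monocytes, had 2 upstream with 74 read pairs against 34.0, and no peak within 1 kb of a start in either replicate.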
